A study of Homo sapiens with 12 samples.

Results

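The miR-29 family comprises the mature arms of miR-29a, miR-29b and miR-29c. Its members were taken by name, with no use of their values, from the entries typed as mature miRNA in both deposited tables, and every listed arm was kept. This gave 3 of the 314 mature miRNAs named in either table, namely miR-29a-3p, miR-29b-3p and miR-29c-3p. The table without LPS listed all 3 among its 285 mature miRNAs, whereas the table with LPS listed miR-29a-3p and miR-29c-3p among its 262. All members found were 3p arms, and the number of listed 5p arms was 0.

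Small noncoding RNA was sequenced from Mono Mac 6 (MM6) cells, a human monocytic leukemia line, and from 5-LO KO MM6 cells, whose ALOX5 gene, encoding 5-lipoxygenase (5-LO), had been disrupted with CRISPR/Cas9. The 4 groups of 3 libraries each were wild-type and 5-LO KO cells without LPS, and wild-type and 5-LO KO cells given 1 µg/mL LPS, an outer membrane component of Gram-negative bacteria, for 6 h. Cells of every group had been differentiated with calcitriol (50 nM) and TGF-β (1 ng/mL), for 72 h by the labels and by the study's account of the sequencing, while its cell culture methods give a longer time. The methods describe the knockout cells as single-cell clones grown after lentiviral transduction and puromycin selection, steps they do not describe for the wild-type cells, and the labels do not tell which clone a library came from. Small RNA reads do not measure the ALOX5 mRNA, so the genotypes were not checked here.

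The family shares a seed, the stretch near the 5′ end through which a miRNA pairs with its target mRNAs. Its members are best known for repressing mRNAs of collagens and other matrix proteins, of DNA methyltransferases and of the survival protein MCL1, and low levels have been described in myeloid leukemia. MYC represses their transcription in several cell types, and TGF-β lowers them in fibroblasts.

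The mature sequences are shown because the seed defines the family and because few bases separate its members, so that the assignment of a read rests on them. They come from RefSeq (table build GRCh38.p14) and run 5′ to 3′, with the seed (bases 2 to 8) in capitals.
miR-29a-3p: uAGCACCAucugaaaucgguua
miR-29b-3p: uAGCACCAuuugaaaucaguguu
miR-29c-3p: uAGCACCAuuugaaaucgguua
With positions counted from 1 at the 5′ end, miR-29c-3p differed from miR-29a-3p by C10U alone over their 22 bases. miR-29b-3p differed from miR-29a-3p over the same length by C10U, G18A, U21G and A22U, and carried 1 further base at its 3′ end. Its last bases, AGUGUU, form the ending that has been described as directing miR-29b to the nucleus. Of the 2370 mature names in the RefSeq table, 3 had the seed AGCACCA, and these were the members. How many mismatches the authors' annotation allowed is not stated in the methods or labels, so the division of reads between miR-29a-3p and miR-29c-3p can depend on them.

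The members come from separate loci on chromosomes 7 and 1. In GRCh37, the build named in the methods as hg19, an exact search of the whole genome placed miR-29a-3p at chr7:130561507-130561528, on the minus strand. miR-29b-3p matched at chr7:130562226-130562248, 697 bases away on the same strand, and again at chr1:207975795-207975817 on the minus strand of chromosome 1. miR-29c-3p lay 563 bases from that second match, at chr1:207975210-207975231. The chromosome 7 sites fall within the lncRNA gene LINC-PINT on the same strand, where miR-29a-3p was intronic in all 11 transcripts that span it and miR-29b-3p was exonic in 1 of 12. Both also lie in introns of the lncRNA gene LINC00513 on the opposite strand. The chromosome 1 sites fall within the lncRNA gene MIR29B2CHG on the same strand, each exonic in 1 and intronic in 4 of 5 transcripts. A mature miR-29b-3p read is the same from either locus, and its count does not tell them apart.

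The deposited values are means of normalized counts, a single mean for the 3 libraries of a group, and the tables without and with LPS were normalized separately. Because whole reads lie behind each mean, the low means revealed the relative depth of the libraries, and from these the reads of each miR-29 arm came out in exactly 1 way in every group. The recovered libraries carry no replicate number and are called deepest, middle and shallowest here. Their size factors were 1.25, 1.02 and 0.883 in wild-type and 1.34, 0.945 and 0.725 in 5-LO KO cells without LPS. With LPS they were 1.72, 1.07 and 0.665 in wild-type and 1.30, 0.835 and 0.812 in 5-LO KO cells. The mature miRNA means summed to 102407 and 113363 normalized counts in wild-type and 5-LO KO cells without LPS and to 93209 and 110318 with LPS. A mean of 3 reads over a group, used here as the lower limit of detection, corresponds to 0.953 and 0.998 normalized counts in these groups without LPS and to 0.868 and 1.02 with LPS. All intervals and limits given cover counting error only, not the spread between libraries. They take reads as independent counts, which could not be checked, since the tables show no molecular identifiers.

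All members were scarce. On the scale of normalized counts, miR-29a-3p was the most abundant arm in each group, with means of 5.09 in wild-type and 5.14 in 5-LO KO cells without LPS, and of 4.56 and 7.79 with LPS. It ranked 129 and 132 among the mature miRNAs without LPS and 125 and 113 with LPS. miR-29b-3p had means of 0.755 and 0.499 without LPS, under the value of 3 reads in both genotypes. The mean of miR-29c-3p was 0.534 in wild-type cells without LPS and 1.5 with LPS, and it was listed at 0 in 5-LO KO cells both times. As a share of the summed mature miRNA means, the whole family made up 0.00623% in wild-type and 0.00497% in 5-LO KO cells without LPS, and 0.00651% and 0.00706% with LPS. The arms miR-3607-3p and miR-3607-5p together held 43.4% and 35.8% of this sum in wild-type and 5-LO KO cells without LPS. With LPS they held 42.0% and 38.5%. Both arms had nearly equal means, 22225 and 22198 in wild-type and 20323 and 20288 in 5-LO KO cells without LPS. With LPS these were 19561 and 19543 in wild-type and 21247 and 21199 in 5-LO KO cells. Whether the same reads were counted in both arms was not tested. Without the miR-3607 arms the family made up 0.0110% and 0.00775% without LPS and 0.0112% and 0.0115% with LPS.

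**Figure D1:**
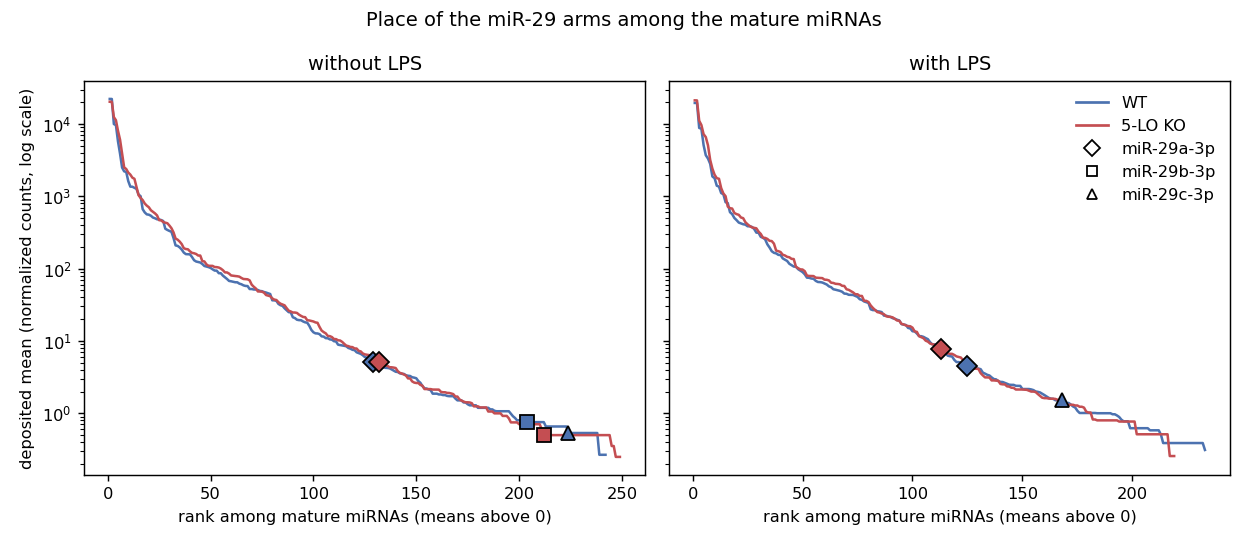
Deposited mean (normalized counts, log scale) against rank for all mature miRNAs with a mean above 0, as a line for each genotype, without LPS on the left and with LPS on the right, with the miR-29 arms marked by symbols. miR-29a-3p sits at ranks 113 to 132, and miR-29b-3p and miR-29c-3p lie further down, where the lines break into steps of a few reads. Means of 0 cannot be drawn on this scale, so miR-29c-3p is missing for 5-LO KO cells.

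The wild-type libraries without LPS held 5, 8 and 3 reads of miR-29a-3p in the deepest, middle and shallowest library, or 4.0, 7.88 and 3.40 normalized counts. In 5-LO KO cells without LPS the reads were 8, 5 and 3, or 5.99, 5.29 and 4.14 normalized counts. The 5-LO KO values all fell within the range of the wild-type values, whose spread was set by the middle library. With LPS, wild-type cells had 10, 2 and 4 reads of miR-29a-3p, or 5.82, 1.87 and 6.01 normalized counts. The 5-LO KO libraries with LPS had 13, 5 and 6 reads, or 10.0, 5.99 and 7.39 normalized counts. With LPS, 2 of the 3 libraries of 5-LO KO cells lay above every wild-type library, and the middle one lay just under the highest wild-type value, so the groups overlapped.

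miR-29b-3p, the arm with the nuclear ending, was read from a single library in each genotype without LPS. Its 2 wild-type reads were in the shallowest library (2.26 normalized counts there), and its 2 reads in 5-LO KO cells were in the deepest (1.5). miR-29c-3p had 2 reads in the deepest wild-type library without LPS (1.60 normalized counts) and 3 reads in the shallowest wild-type library with LPS (4.51). Across both tables that made 5 wild-type reads, from 2 of 6 libraries, and 0 reads in the 6 libraries of 5-LO KO cells, where the limit of 3 reads corresponds to means of 0.998 and 1.02 normalized counts. The counting intervals of the wild-type means, 0.0769 to 2.29 without LPS and 0.179 to 2.54 with LPS, both include these limits. Library values of exactly 1 read were rare among mature miRNAs with means of at most 10 (41, against 346 values of 2 reads), so libraries listed at 0 may have held single reads.

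**Figure D2:**
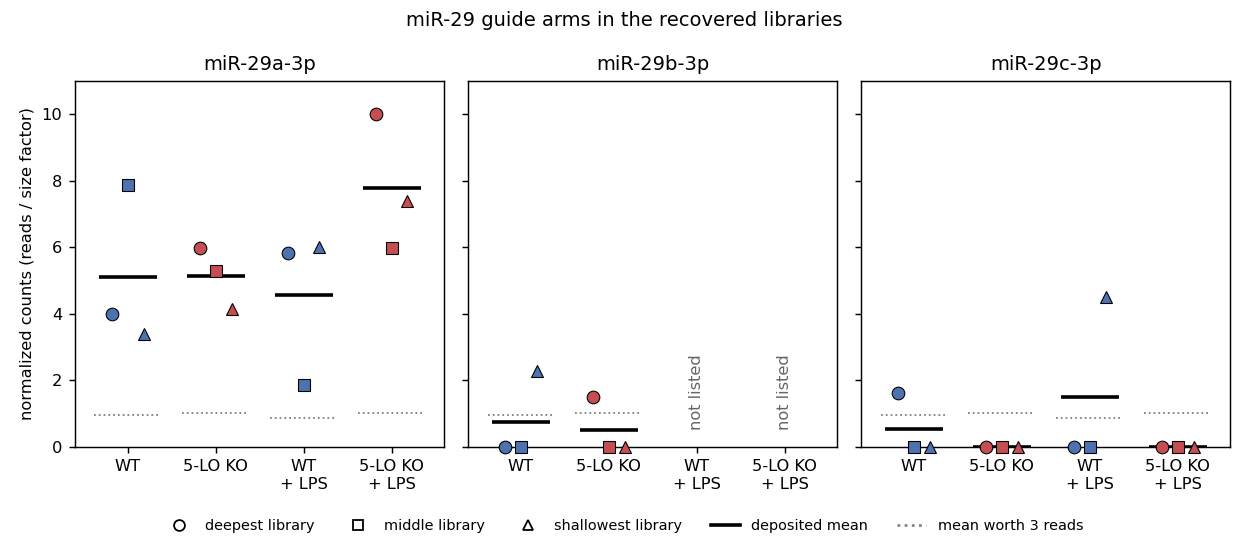
Normalized counts of miR-29a-3p, miR-29b-3p and miR-29c-3p in the recovered libraries of the 4 groups, with a symbol for each library. A black bar is the deposited mean, and a dotted line is 3 reads divided by the summed size factors of the group. miR-29a-3p lies between 1.87 and 10.0 normalized counts and overlaps between genotypes in both tables, and each value of miR-29b-3p or miR-29c-3p above 0 comes from 2 or 3 reads of a single library.

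The first comparison asked whether the family differs between 5-LO KO and wild-type cells without LPS. miR-29a-3p had a log2 ratio of 5-LO KO to wild-type means of 0.01 (95% counting interval -1.03 to 1.16), from 16 reads in either genotype. The sign of this ratio turned with the scaling, with log2 values of -0.16, -0.13 and -0.21 after scaling to equal sums of all noncoding RNAs, to equal sums of mature miRNAs and to a median log2 ratio of 0 over the mature miRNAs with an average of at least 50. An exact two-sided permutation test over the recovered libraries gave p = 0.9 without LPS, where 0.1 is the smallest p that 3 against 3 libraries can give. The summed 3p arms had 6.38 normalized counts (20 reads) in wild-type and 5.64 (18 reads) in 5-LO KO cells, a log2 ratio of -0.18 with a counting interval from -1.09 to 0.91. No fold is given for miR-29b-3p or miR-29c-3p, since both genotypes had 3 reads or fewer.

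At this depth, a change of the family without LPS between a fall to 0.470 times and a rise to 1.88 times the wild-type sum was within the counting interval. Left-out libraries moved the ratio of the sum from -0.44, without the deepest 5-LO KO library, to 0.0018, without the middle wild-type library. For miR-29a-3p alone the values ran from -0.21, without the shallowest wild-type library, to 0.47, without the middle wild-type library.

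None of the members had an average of both means of at least 10 normalized counts, the minimum set for counting miRNAs past 1.5-fold. Of 111 mature miRNAs without LPS that did, 31 (27.9%) differed by 1.5-fold or more in either direction, with 26 higher in 5-LO KO cells (23.4%) and 5 lower. In the range from 2 to under 10, which holds miR-29a-3p and was added after the data were seen, 26 of 50 (52.0%) did so, 13 of them higher (26.0%) and 13 lower. miR-29a-3p was not among these, and of the 50 ratios in its range 26 were higher and 23 lower than its own. The range held 51 mature miRNAs, of which 1 had a mean of 0 in a genotype, gave no ratio and was left out. The median log2 ratio was 0.17 for averages of at least 10 and 0.03 for the lower range. Scaling shifted every log2 ratio without LPS by -0.17 for all noncoding RNAs, by -0.15 for mature miRNAs and by -0.22 for a median of 0 over averages of at least 50. Of the calls among miRNAs with averages of at least 10, 83.9% were higher in 5-LO KO cells as deposited, and 58.3%, 62.5% and 54.2% after these scalings.

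The same question was asked of cells given LPS. miR-29a-3p had a 5-LO KO mean 1.71 times the wild-type mean, a log2 ratio of 0.77 with a counting interval from -0.16 to 1.83, from 24 reads against 16. The exact two-sided permutation test over the recovered libraries gave p = 0.2 with LPS, and the Benjamini-Hochberg values over the 2 permutation tests were 0.9 and 0.4. The counting interval included 0 and the libraries of the genotypes overlapped, and with so few libraries this test could not have passed the usual thresholds. It passed 1.5-fold as deposited and scaled to all noncoding RNAs (0.70), but not when scaled to mature miRNAs (0.53) or to a median ratio of 0 (0.49). It also fell under 1.5-fold without the middle wild-type library (0.40), which held 2 reads, without the deepest 5-LO KO library (0.55), and with 10 added to every mean (0.29). The highest value, 1.02, came without the shallowest wild-type library.

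In the table with LPS, 25 of 108 mature miRNAs with averages of at least 10 (23.1%) were past 1.5-fold, 20 higher in 5-LO KO cells (18.5%) and 5 lower. In the range from 2 to under 10 it was 21 of 41 (51.2%), with 9 higher (22.0%), miR-29a-3p among them, and 12 lower. Of the 41 ratios in this range, which ran from -2.41 to 2.55 on the log2 scale, 7 were higher than that of miR-29a-3p and 33 were lower. The range held 43 mature miRNAs, of which 2 had a mean of 0 in a genotype, gave no ratio and were left out. The median log2 ratio was 0.14 for averages of at least 10 and -0.06 for the lower range. The scalings shifted the log2 ratios with LPS by -0.07, -0.24 and -0.28, in the order given above, and moved the higher share of the calls with averages of at least 10 from 80.0% to 62.5%, 37.0% and 33.3%.

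Summed over the listed 3p arms, the family with LPS had 6.07 normalized counts (19 reads) in wild-type and 7.79 (24 reads, all of miR-29a-3p) in 5-LO KO cells. The log2 ratio of the means was 0.36, with a counting interval from -0.36 to 1.52. From summed reads, on which this interval rests, the log2 ratio was 0.57. The ratio of the means was lower than that of miR-29a-3p because the 3 wild-type reads of miR-29c-3p entered the sum. Without the middle wild-type library the ratio turned to -0.07, and without the shallowest it was 1.02. The ratio with LPS minus the ratio without LPS was 0.54 for the sum (95% interval from counting errors -0.72 to 1.80) and 0.76 for miR-29a-3p (-0.60 to 2.11), so no difference between the knockout effects was detectable at this depth.

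**Figure D3:**
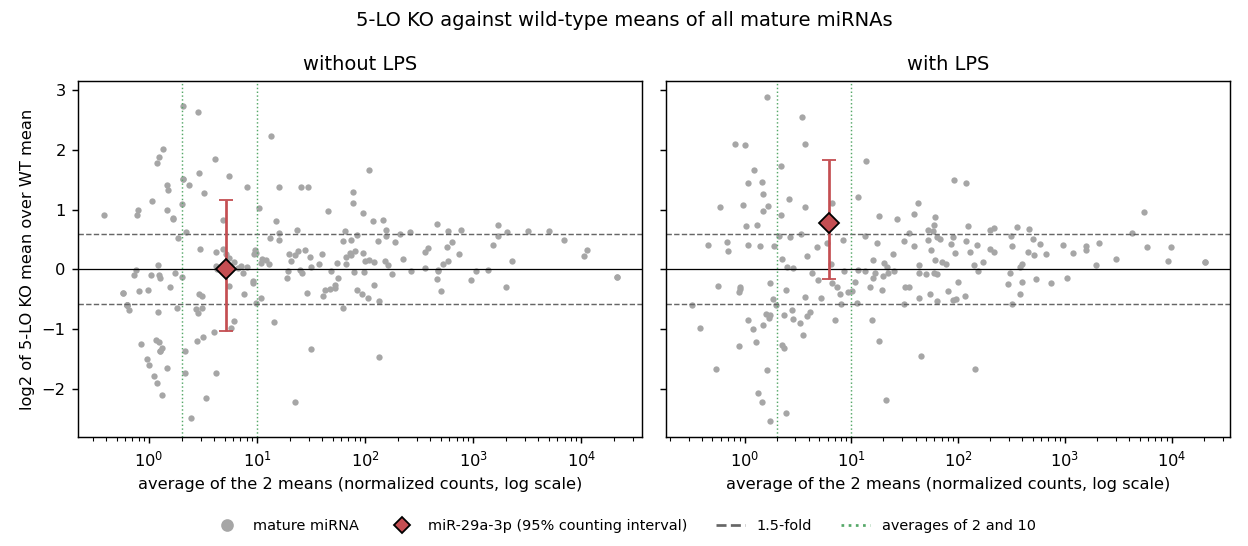
Log2 ratio of the 5-LO KO to the wild-type mean against the average of both means (normalized counts, log scale) for mature miRNAs with both means above 0, without LPS on the left and with LPS on the right. The red diamond is miR-29a-3p with its 95% counting interval, at 0.01 and 0.77. It lies in the range of averages from 2 to 10 (dotted lines), where 52.0% and 51.2% of the miRNAs were past 1.5-fold (dashed lines).

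The effect of LPS within a genotype was read from shares of the mature miRNA sum, because the tables were scaled separately. miR-29a-3p made up 0.00497% of this sum in wild-type cells without LPS and 0.00490% with LPS, a log2 ratio of -0.02 (counting interval -1.09 to 1.10). In 5-LO KO cells its share was 0.00453% without LPS and 0.00706% with LPS, a log2 ratio of 0.64 (-0.32 to 1.66). For the summed family the log2 ratio of LPS to no LPS was 0.06 (-1.06 to 0.91) in wild-type and 0.51 (-0.46 to 1.45) in 5-LO KO cells. The wild-type value turned to -0.07 when the deposited means were used as they stand. With the miR-3607 arms left out of the mature sum, the family values were 0.03 in wild-type and 0.57 in 5-LO KO cells. From highest to lowest share of miR-29a-3p, the order was 5-LO KO cells with LPS, wild-type cells without LPS, wild-type cells with LPS and 5-LO KO cells without LPS. By deposited means, 5-LO KO cells without LPS (5.14) came before wild-type cells without (5.09) and with LPS (4.56), so the lower part of this order turned with the scaling. Of the neighbours in this order, wild-type cells without and with LPS did not differ beyond counting error, and the others differ in both genotype and LPS and were not compared.

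**Figure D4:**
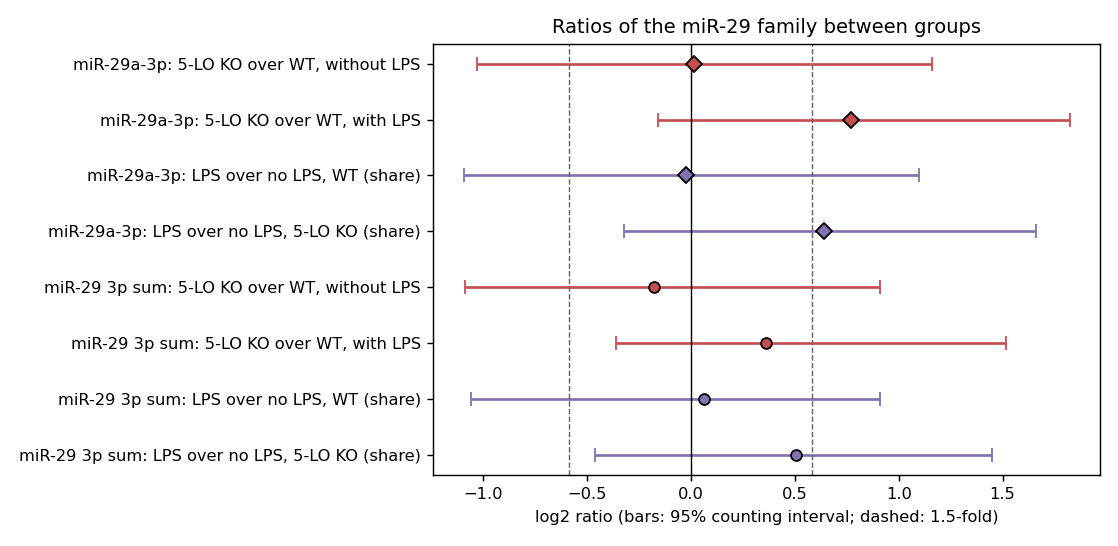
Log2 ratios of miR-29a-3p (diamonds) and of the summed 3p arms (circles) with 95% counting intervals as bars, between genotypes in red and between LPS and no LPS, as shares of the mature miRNA sum, in purple. Every interval includes 0, and the highest ratio is 0.77, for miR-29a-3p in 5-LO KO against wild-type cells with LPS.

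The makeup of the family was compared as the percentage that miR-29a-3p held of the summed 3p arms, a ratio within a group that does not depend on the scaling between groups but does depend on the size factors of its libraries. By normalized counts it was 79.8% in wild-type and 91.2% in 5-LO KO cells without LPS, and 75.2% and 100% with LPS. By recovered reads, miR-29a-3p held 16 of 20 in wild-type (80.0%, 95% Wilson interval 58.4% to 91.9%) and 16 of 18 in 5-LO KO cells (88.9%, 67.2% to 96.9%) without LPS. With LPS it held 16 of 19 reads in wild-type (84.2%, 62.4% to 94.5%) and 24 of 24 in 5-LO KO cells (100%, 86.2% to 100%). The intervals of all 4 groups, which belong to the shares of reads, overlapped. In the wild-type group with LPS, all of the remainder was miR-29c-3p and came from the shallowest library, the one with a size factor of 0.665.

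The precursor entries of the family added little to the mature arms. The entries mir-29a and mir-29c held the same reads, library by library, as their 3p arms in every group. mir-29b-1 had 3 reads in wild-type and 1 in 5-LO KO cells without LPS, and mir-29b-2 had 1 read in each. In 5-LO KO cells these add up to the 2 reads of miR-29b-3p, whereas in wild-type cells the middle library held 2 reads of mir-29b-1 (0.657 normalized counts in the mean) that were not in the mature entry. In the shallowest wild-type and the deepest 5-LO KO library, each mir-29b entry had 1 read where miR-29b-3p had 2. A miR-29b-3p read is the same from either locus, so this division does not assign the reads to a locus. Neither mir-29b entry was listed with LPS. Of the 52 mature miRNAs listed only without LPS, as miR-29b-3p was, none had a mean above 3.15 normalized counts.

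The mature miRNAs most like miR-29a-3p were sought among 72 with an average of at least 50 normalized counts over the 4 means, by the distance between their log2 ratios of 5-LO KO to wild-type means without and with LPS. The nearest was miR-1248, with log2 ratios of 0.07 and 0.70 and a distance of 0.0932. It was followed by miR-146b-3p (0.04 and 0.65, distance 0.121) and miR-423-5p (0.24 and 0.74, distance 0.227), and the median distance was 0.702. miR-146b-3p had means of 8.0 and 8.22 normalized counts without LPS, under 10, and reached the average through the groups with LPS (154 and 243), so its ratio without LPS rests on few reads. These distances cover 2 comparisons and are smaller than the width of the counting intervals of miR-29a-3p. The remaining members had no pair of ratios to compare.

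Set beside larger families of miRNAs, which are of similar length, the miR-29 arms held a small part of the reads. Without LPS, the summed normalized counts of the 8 listed let-7 5p arms were 2039 times those of the miR-29 family in wild-type and 3354 times in 5-LO KO cells. The 5 miR-30 5p arms had 144 and 244 times the sum of the miR-29 family. With LPS the let-7 arms had 1868 and 1943 times and the miR-30 arms 124 and 131 times the miR-29 sum. The log2 ratio of 5-LO KO to wild-type sums was 0.54 for let-7 and 0.59 for miR-30 without LPS, against -0.18 for miR-29. With LPS it was 0.42 for let-7 and 0.44 for miR-30, against 0.36 for miR-29. In both tables the values of the larger families lay within the counting interval of the miR-29 sum.

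miR-29 was also read beside 19 other miRNAs that MYC is known to repress. Without LPS, 18 of these were listed and 14 had an average of at least 10, of which 4 (28.6%) were 1.5-fold or more higher in 5-LO KO cells and 0 were lower, beside 23.4% higher among all 111 mature miRNAs with such averages. Under each of the 3 scalings, 0 of the 14 were higher and 1 was lower. Of the 111, 5 were lower as deposited, and after the scalings 13 to 15 were higher and 9 to 11 lower. The median log2 ratio of the 14 was 0.38 as deposited and 0.16 to 0.24 after scaling. Among these 14 the highest ratio was that of miR-30d-5p (0.66) and the lowest that of miR-30b-5p (-0.44). With LPS, 17 were listed and 14 reached the minimum, of which 3 (21.4%, beside 18.5% of all 108) were higher and 0 lower, and after scaling 1 or 2 were higher and 0 or 1 lower, beside 9 to 15 higher and 9 to 18 lower of the 108. The median was 0.40 as deposited and 0.12 to 0.33 after scaling, with deposited values of these 14 from -0.36 (miR-15a-5p) to 0.87 (miR-30c-5p). The medians over all mature miRNAs with such averages were 0.17 and 0.14 as deposited. After the scalings they were -0.04 to 0.03 without LPS and -0.14 to 0.07 with LPS. No miR-29 arm reached this minimum average.

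The level of miR-29a-3p can be set against miRNAs chosen by cell type. The 4 looked for as miRNAs that a monocytic line should hold were miR-223-3p, miR-142-3p, miR-142-5p and miR-21-5p. All were listed in every group, at 7.44 to 756 times the normalized counts of miR-29a-3p. The top of this range was miR-21-5p, and without it the highest ratio was 76.8 (miR-142-5p in 5-LO KO cells without LPS). The summed means of the 4 were 3014 and 4449 normalized counts in wild-type and 5-LO KO cells without LPS. With LPS they were 3205 and 3698, and miR-21-5p was the most abundant. Without LPS, miR-21-5p had 2499 and 3885 normalized counts in wild-type and 5-LO KO cells and miR-142-5p 323 and 394, whereas miR-223-3p had 93.8 and 74.3 and miR-142-3p 97.9 and 95.2. With LPS, in the same order of genotypes, miR-21-5p had 2816 and 3188 and miR-142-5p 254 and 372. There miR-223-3p had 60.4 and 58.0, while miR-142-3p, at 75.1 and 80.2, turned direction. Of 8 miRNAs of liver, neuron, muscle, epithelium and red blood cells, only the epithelial miR-200c-3p was listed. It had 4 wild-type reads without LPS and 2 with LPS and was at 0 in 5-LO KO cells both times, as miR-29c-3p was, and its part in the miR-29 values was not tested.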

How the data were processed

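The signal columns deposited by the authors hold 1 mean of normalized counts per genotype and table, from adapter-trimmed reads annotated against hg19 with the web tool omiRas. Of the aligner, mismatches and scaling, nothing is given in the sources used here. The authors' columns of log2 fold changes, p-values and false discovery rates were not used.

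Size factors were found by a search for 3 steps whose whole multiples gave the means of at most 10 within the rounding of 6 digits. This worked in exactly 1 way for 378 of 378, 436 of 439, 361 of 361 and 352 of 352 such means (wild-type and 5-LO KO cells without LPS, then with LPS). The search was also run on simulated data, but its outcome there is not reported here. Intervals of ratios are exact binomial intervals (95%) on the split of reads, and those of differences between ratios use a normal approximation. The ratios themselves are of deposited means, so they need not lie at the centre of these intervals. From summed reads, the log2 ratios of 5-LO KO to wild-type cells were -0.09 and 0.57 for the sum without and with LPS. For miR-29a-3p they were 0.07 and 0.81. The exact permutation test, the scalings of the MYC list and the group shares without miR-3607 were added after the data were seen. The study refers to independent experiments for its sequencing, while the labels number the replicates without saying what separates them. The p-values measure only the spread between the recovered libraries.

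Named miRNAs were all listed arms, the 3 nearest in ratios, the let-7 and miR-30 sums, the extremes of the list of MYC-repressed miRNAs among those with averages of at least 10, and the myeloid and other tissue miRNAs listed. The arms of miR-3607 were named for their part of the mature sum. The members and lists were chosen with earlier results of these data known. Alternatives were scalings, pseudocounts, minimum means, fold thresholds, denominators, ways of summing the family and left-out libraries. Sites were found by exact match to GRCh37 with its lifted GENCODE annotation. Statistics were computed with scipy 1.17.1 and numpy 2.4.6, tables handled with pandas 2.3.3 in Python 3.11.15, and plots drawn with matplotlib 3.10.9.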

Additional observations from a re-analysis of the deposited data

How the results depend on the processing

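The counting interval of every miR-29 ratio includes 0, so none had a called direction to lose, and these intervals are too wide for a value staying inside them to show stability. Of 54 recomputed ratios of the family whose sign the setting could turn, 11 had the other sign: 7 for miR-29a-3p and 2 for the sum in 5-LO KO against wild-type cells without LPS, 1 for the sum with LPS, and 1 for LPS against no LPS in wild-type cells. With each library left out in turn, the log2 ratio of 5-LO KO to wild-type cells for the summed 3p arms ran from -0.44 to 0.0018 without LPS and from -0.07 to 1.02 with LPS, and that of miR-29a-3p from -0.21 to 0.47 and from 0.40 to 1.02. Leaving libraries out of the sum, summing reads over libraries and the range of averages from 2 to 10 were added after the data were seen. When miR-29a-3p and miR-29c-3p were added together, their share of the sum in wild-type cells with LPS was 100%, by construction, since no other member was listed there. The count of mature miRNAs past 1.5-fold was 31 without LPS and 25 with LPS. It became 89 and 75 with no minimum mean, 19 and 14 with a minimum average of 50, and 11 and 9 for 2-fold, as fewer or more miRNAs could pass. No paired analysis was possible because the deposited columns are means and carry no replicate numbers. Depth limits all members: 2 or 3 reads stand behind each value of miR-29b-3p and miR-29c-3p above 0, and 16 to 24 reads behind those of miR-29a-3p.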
